A study of Mus musculus with 16 samples.

Results

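The genes described here encode cytochrome P450 enzymes of families 1 to 3. The rule that chose them uses names alone and was set with earlier results of these data known. It takes all genes whose platform symbol is Cyp followed by 1, 2 or 3 and a letter, without Cyp2c70. The rule found 44 genes with 61 probes among 25697 probes. Of the 44 genes, 30 had a probe detected in at least 4 of the 16 arrays (detection p below 0.05) and were tested together with the other genes of the array, 9095 in all. Liver RNA came from male C57Bl/6Hsd mice, 4 per group and 1 array per mouse, killed at 10 months of age after an overnight fast. The groups were SHP-/- mice on a western diet, wild type mice on a western diet, SHP-/- mice on chow and wild type mice on chow, each diet given for 6 months from the age of 4 months. SHP-/- mice are called knockout, or KO in plots, and wild type mice WT. The product of Nr0b2, SHP (small heterodimer partner), binds other nuclear receptors and represses their target genes without contacting DNA itself. The labels do not say whether the deletion is whole-body or whether the mice were littermates.

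P450 enzymes are haem proteins of the endoplasmic reticulum that take electrons from P450 oxidoreductase and insert oxygen into their substrates. Families 1 to 3 oxidise drugs, plant compounds, steroids, fatty acids and bile acids, and the liver is their main site. Their transcription is set largely by receptors that sense foreign compounds. CAR, encoded by Nr1i3, drives Cyp2b10 and several Cyp2c genes, PXR, encoded by Nr1i2, drives Cyp3a11, and AhR drives the Cyp1 genes. Many members are expressed in only a zone of the liver lobule, around the central vein for Cyp1a2, Cyp2e1 and several Cyp2c genes and around the portal vein for Cyp2f2. Several Cyp2 genes of the mouse also differ between the sexes under the control of growth hormone.

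The share of detected probes ran from 43.61% to 51.07%. It was 48.78% to 51.07% in wild type livers on western diet and 43.61% to 47.29% in the other groups, without overlap. The lowest log2 level called detected was 4.59 to 4.64 in wild type livers on western diet and 4.69 to 4.83 in the other groups. A probe at the same level could thus be called detected in wild type livers on western diet and missed in another group. The single Nr0b2 probe was detected in 0 of 16 arrays (lowest detection p 0.227), so it checks nothing about the genotype labels. The samples were whole liver: of 10 hepatocyte markers 8 were tested, and their mean log2 level lay between 12.71 and 13.10 in every array. It was 12.71 to 12.84 in wild type livers on western diet and 12.87 to 13.10 in the other groups, without overlap. Single markers moved too. Alb (log2 difference 0.58) and Serpina1a (0.47) were higher in knockout than in wild type livers on western diet (8.82% of all genes). Cps1 (-0.66), Hnf4a (-0.47) and Serpina1a (-0.47) were lower on western diet than on chow in wild type livers (14.1% of all genes). The Alb probe was near background, with group means of 4.39 to 5.17 and detection in 8 of 16 arrays. Of 13 tested macrophage and Kupffer cell markers, 12 were lower in knockout than in wild type livers on western diet (11% of all genes) and 12 were higher on western diet than on chow in wild type livers (15.5% of all genes). Of 11 tested stellate cell and fibroblast markers, 6 were lower and 8 were higher in the same comparisons, and their mean log2 level was 6.23 to 6.56 in knockout and 6.99 to 7.54 in wild type livers on western diet. The macrophage markers had a mean log2 level of 7.52 to 7.85 in knockout and 9.05 to 9.89 in wild type livers on western diet, and 7.23 to 7.66 in knockout and 7.12 to 7.71 in wild type livers on chow. In such whole tissue RNA, fewer cells of a type and less RNA per cell cannot be told apart. Levels below are normalized log2 intensities of 1 probe per gene. Differences are log2 differences with their SE from the limma fit, with 4 mice per group. The fit takes 1 spread per gene from all 4 groups and draws it towards that of other genes. The SE is therefore not the spread of the groups compared. Passing means a limma p, adjusted by Benjamini-Hochberg over the 9095 genes, below 0.05. The level of a probe is comparable between arrays and not with that of another probe.

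The 14 members that were not tested had few or no detected arrays. Cyp1a1, Cyp2b19, Cyp2c65, Cyp2d34, Cyp2j5, Cyp2j6, Cyp2j11, Cyp2j13, Cyp3a16, Cyp3a41a and Cyp3a44 were detected in 0 arrays. Cyp2c40 was detected in 2 arrays, Cyp2s1 in 3 and Cyp2g1 in 3, all of them wild type livers on western diet in the case of Cyp2g1. Cyp3a16, Cyp3a41a and Cyp3a44 are known as female-biased in mouse liver. Of the tested members, 7 of 9 Cyp2c genes, 7 of 8 Cyp2d genes, 4 of 5 Cyp2b genes, 3 of 6 Cyp3a genes, 2 of 2 Cyp2a genes and 1 of 5 Cyp2j genes passed the filter, along with Cyp1a2, Cyp1b1, Cyp2e1, Cyp2f2, Cyp2r1 and Cyp2u1. Paralogs of these subfamilies have similar sequences, so a probe can bind the transcript of a neighbour; probe sequences were not analysed here and this cross-binding was not tested. Cyp2d13 is annotated as a transcribed pseudogene.

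Knockout livers had lower Cyp2a12 and Cyp2f2 than wild type livers on both diets. On western diet, Cyp2c37, Cyp2c50, Cyp2d9, Cyp2d10 and Cyp2d13 were higher in knockout than in wild type livers, and in wild type livers all of these were lower on western diet than on chow. Cyp1a2 was lower on western diet in both genotypes. Among the 3 tested Cyp3a genes, the 1 call was a lower Cyp3a11 on western diet in knockout livers.

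On chow, 2 of 30 members passed between knockout and wild type livers, against 0.836% of all genes. Both were lower in knockout livers, Cyp2a12 and Cyp2f2, where 0.396% of all genes were, and 0 members were higher, where 0.440% of all genes were. Before adjustment, 9 of 30 members were below a limma p of 0.05, as were 972 of all 9095 genes. The median difference of the 30 members was -0.18, against 0.01 over all genes. On western diet, 14 of 30 members passed, against 19.8% of all genes. Of these, 8 were higher in knockout livers, where 8.82% of all genes were, and 6 were lower, where 11% were. The 6 include Cyp2c55 and Cyp2d12, for which wild type livers on western diet, their high group, alone supplied the 4 detected arrays that the filter asks for, so their direction was favoured by the filter. The median of the members was 0.19, against 0.03 over all genes. Both genotype comparisons of a diet are shown for every tested member in the plot of genotype differences.

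**Figure D1:**
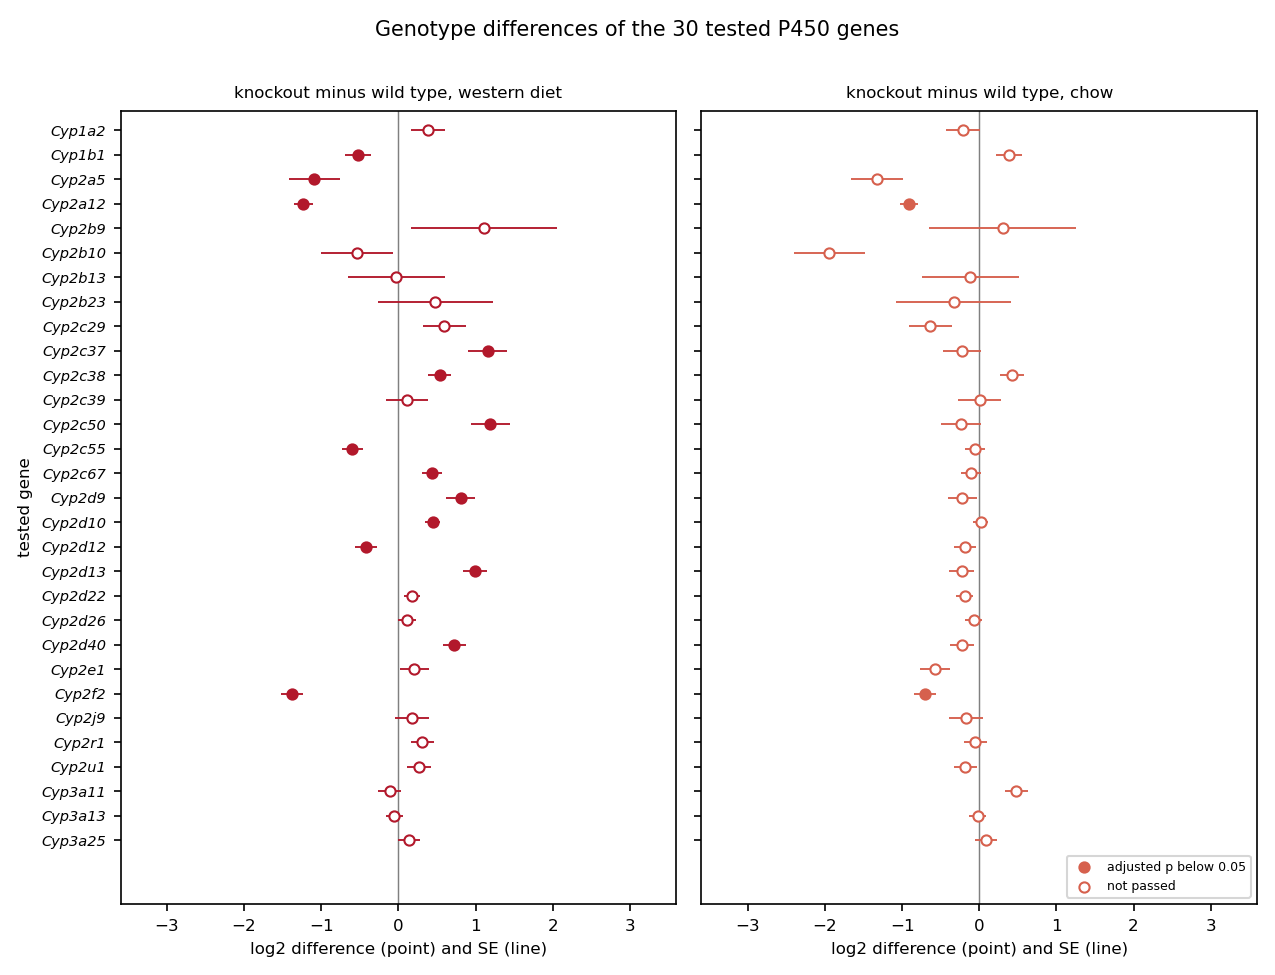
Log2 differences, knockout minus wild type, of the 30 tested genes on western diet (left) and chow (right). Each point has its SE from the limma fit over all 16 arrays (4 mice per group). Filled points have a limma adjusted p below 0.05, which 14 genes reach on western diet and 2 on chow; Cyp2a12 and Cyp2f2 lie left of 0 on both diets.

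In wild type livers, 13 of 30 members passed between western diet and chow, against 29.6% of all genes. Of these, 4 were higher on western diet (15.5% of all genes) and 9 were lower (14.1%). Cyp2c55 and Cyp2d12 are also among these 4. The median of the members was -0.16, against -0.03 over all genes. In knockout livers, 5 of 30 members passed, against 7.88% of all genes, 2 higher on western diet (4.52%) and 3 lower (3.36%). The median of the members was 0.20, against -0.01 over all genes. The test of whether the diet effect differed between genotypes, taken as the knockout effect less the wild type effect, called 6 of 30 members, against 7.05% of all genes. It was above 0 for 5 of them (2.29% of all genes) and below 0 for 1, Cyp1b1 (4.76%). The comparison of genotypes on western diet and that of diets in wild type use the same 4 wild type western arrays. A single array low or high there moves both. Arrays were also scaled to a common median in place of quantile normalization. Then 6 members were higher and 6 lower in knockout livers on western diet (8 and 6 with quantile normalization). On western diet against chow, 4 were higher and 6 lower in wild type (4 and 9), and 2 higher and 1 lower in knockout livers (2 and 3). Between genotypes on chow 0 were higher and 4 lower (0 and 2). The interaction was above 0 for 7 called members and below 0 for 2 (5 and 1). Over all genes that scaling gave 208 higher and 1691 lower in knockout livers on western diet (802 and 997 with quantile normalization), 2082 higher and 290 lower on western diet in wild type (1407 and 1286), 297 and 50 in knockout livers (411 and 306), 21 and 39 between genotypes on chow (40 and 36), and 75 above and 503 below 0 in the interaction (208 and 433).

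**Figure D2:**
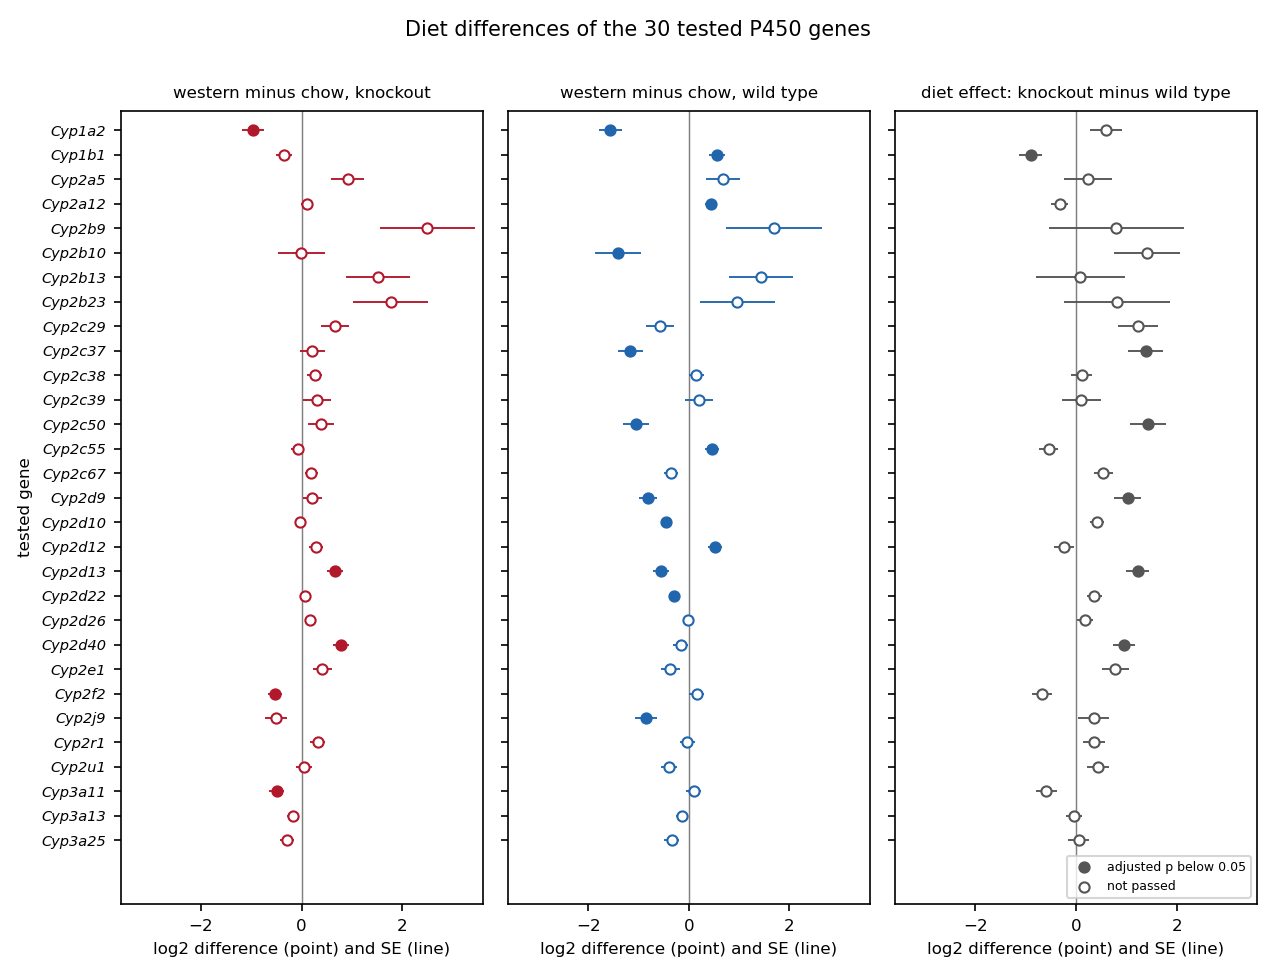
Log2 differences, western diet minus chow, in knockout livers (left) and wild type livers (middle), and the knockout difference minus the wild type difference (right), each point with its SE. Filled points have a limma adjusted p below 0.05; 5, 13 and 6 genes reach it, and Cyp2c37, Cyp2c50, Cyp2d9 and Cyp2d13 are below 0 in wild type and above 0 in knockout.

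Cyp2a12 hydroxylates bile acids in mouse liver, and Cyp2a5 oxidises coumarin and nicotine. On western diet Cyp2a12 had log2 levels of 11.32, 11.74, 11.10 and 11.34 in knockout livers, against 12.46, 12.54, 12.71 and 12.71 in wild type livers. On chow it had 11.40, 11.15, 11.32 and 11.16 in knockout livers, against 12.27, 12.23, 12.25 and 11.92 in wild type livers. All knockout arrays lay below all wild type arrays on both diets. Cyp2a12 was 2.35-fold lower in knockout livers on western diet (-1.23 ± 0.12, adjusted p = 8.63e-07) and 1.88-fold lower on chow (-0.91 ± 0.12, adjusted p = 0.000165). It passed in both comparisons in every alternative and with each array left out. Among wild type livers it was 1.35-fold higher on western diet than on chow (0.44 ± 0.12, adjusted p = 0.00966), and in knockout livers the difference was 0.12 ± 0.12 (95% interval -0.13 to 0.37). The 2 diet effects did not pass the test of their difference (-0.32 ± 0.17, adjusted p = 0.288).

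Cyp2a5 had log2 levels of 10.92, 11.88, 11.59 and 11.32 in knockout livers on western diet, against 12.44, 11.79, 12.43 and 13.41 in wild type livers. The lowest wild type array lay just below the highest knockout array, and the highest wild type liver stood well above the rest. Cyp2a5 was 2.13-fold lower in knockout livers on western diet (-1.09 ± 0.34, adjusted p = 0.0271). The call was lost without knockout western array 1 or 4 or wild type western array 4 (adjusted p up to 0.0948) and with the authors' values (0.0748). Its chow levels were 10.56, 9.94, 11.37 and 10.18 in knockout livers, against 11.28, 12.27, 12.42 and 11.38 in wild type livers, and the difference of -1.33 ± 0.34 did not pass (adjusted p = 0.0715). It passed with median scaling, with the 8 arrays compared alone, and without wild type western array 2 or 4 or knockout chow array 3 (adjusted p down to 0.0165). All 4 Cyp2a5 probes pointed down in knockout livers on western diet, with differences from -1.38 to -0.83.

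Cyp2f2 bioactivates naphthalene and is a periportal P450 of mouse liver. Its log2 levels were 11.79, 11.61, 11.49 and 12.20 in knockout livers on western diet, against 13.41, 13.16, 12.84 and 13.21 in wild type livers. On chow they were 12.59, 12.12, 12.31 and 12.17 in knockout livers, against 13.02, 12.88, 13.13 and 12.96 in wild type livers. Knockout and wild type arrays did not overlap on either diet. Cyp2f2 was 2.60-fold lower in knockout livers on western diet (-1.38 ± 0.14, adjusted p = 2.15e-06) and 1.63-fold lower on chow (-0.70 ± 0.14, adjusted p = 0.0206). The western diet lowered it 1.44-fold in knockout livers (-0.52 ± 0.14, adjusted p = 0.0321), while in wild type livers the difference was 0.15 ± 0.14 (adjusted p = 0.457). The difference between the diet effects was -0.68 ± 0.20 (adjusted p = 0.0510) and passed with both background alternatives, the strict filter, the replicate block and without knockout western array 4 or wild type western array 3 (adjusted p down to 0.0134). On chow the call was lost without knockout chow array 2 or 4 or wild type chow array 1 or 3 (adjusted p up to 0.0866) and with the authors' values (0.0718). The diet call in knockout livers was lost without knockout western array 1, 2 or 3 or knockout chow array 1 or 3 (adjusted p up to 0.101), with median scaling, with the authors' values, without a detection filter and with the 8 arrays alone (adjusted p up to 0.271).

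**Figure D3:**
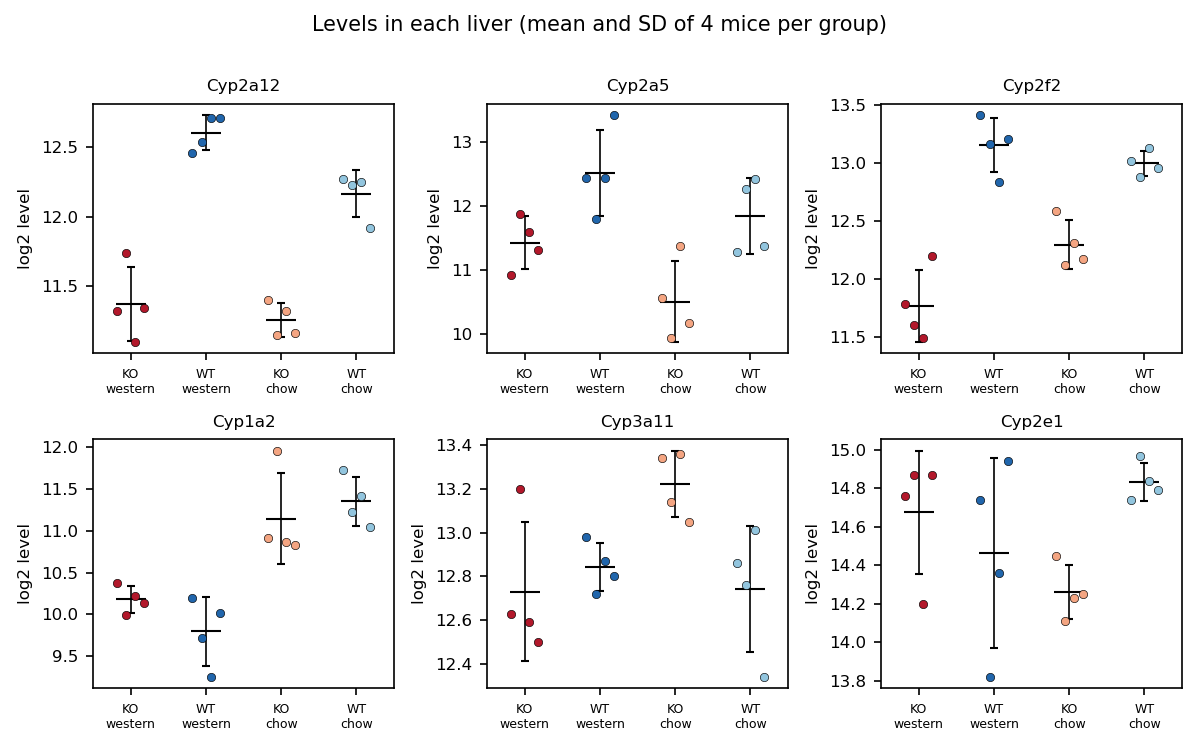
Log2 level in each liver (y axis) of Cyp2a12, Cyp2a5, Cyp2f2, Cyp1a2, Cyp3a11 and Cyp2e1 by group (x axis), with 1 point per mouse and bars for the mean and SD of 4. For Cyp2a12 and Cyp2f2 all knockout points lie below all wild type points on each diet, and for Cyp1a2 all western diet points lie below all chow points.

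Cyp2a12 and Cyp2f2 were the members that passed as lower in knockout livers on both diets. Cyp2a5 was lower on both diets too, but did not pass on chow. For the pair that passed, the 250 bases before the annotated starts are shown, from RefSeq in build GRCm38.p6. Both genes lie on chromosome 7, as do the tested members Cyp2a5, Cyp2e1, Cyp2r1 and the Cyp2b genes. Capitals mark matches on either strand to TATAAA, the core of the TATA box, to CCAAT, to AGGTCA, the half-site that nuclear receptors bind, and to GCGTG, the core bound by AhR. Cyp2a12 lies at chr7:27028840-27029089 and Cyp2f2 at chr7:27119705-27119954, both on the plus strand.
Cyp2a12: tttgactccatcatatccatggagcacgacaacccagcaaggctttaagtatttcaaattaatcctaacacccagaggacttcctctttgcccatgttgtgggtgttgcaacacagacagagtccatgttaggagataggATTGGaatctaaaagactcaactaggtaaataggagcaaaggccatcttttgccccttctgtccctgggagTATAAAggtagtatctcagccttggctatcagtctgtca
Cyp2f2: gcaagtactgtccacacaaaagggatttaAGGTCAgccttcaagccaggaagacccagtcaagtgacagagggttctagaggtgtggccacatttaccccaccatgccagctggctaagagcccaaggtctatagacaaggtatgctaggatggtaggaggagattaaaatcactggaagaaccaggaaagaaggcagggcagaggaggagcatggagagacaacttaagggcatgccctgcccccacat
TATAAA began 39 bases before the start of Cyp2a12, ATTGG (which is CCAAT on the other strand) 110 bases before, and AGGTCA began 221 bases before the start of Cyp2f2. The windows of the pair were 37.9% identical when aligned over their whole length. The table held 38 of the 44 members, and Cyp2d12, Cyp2d13, Cyp2d22, Cyp2d34, Cyp2g1 and Cyp2u1 had no entry. TATAAA was found in 19 of the 38 genes and in 12.4% of 32851 windows of all genes. AGGTCA was found in 11 of 38 and in 14% of all windows, CCAAT in 12 of 38 and in 33.8%, and GCGTG in 5 of 38 and in 28.2%. No matches overlapped in the windows printed. A match describes letters in the window and does not show that a factor binds there.

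Among the Cyp2c genes, 5 of 7 passed between genotypes on western diet (19.8% of all genes). Of these, 4 were higher in knockout livers (8.82% of all genes) and 1, Cyp2c55, was lower (11%). In wild type livers 3 of 7 passed between diets (29.6% of all genes), 1 higher on western diet (15.5%) and 2 lower (14.1%). In knockout livers 0 of 7 did (7.88% of all genes). There, 1 of 7 was at an unadjusted p below 0.05 in limma, as were 2188 of 9095 genes. Cyp2c37 and Cyp2c50, which oxidise arachidonic acid and other fatty acids, differed most. On western diet Cyp2c37 had log2 levels of 13.16, 13.30, 13.10 and 13.08 in knockout livers, against 12.63, 11.40, 11.23 and 12.75 in wild type livers. Levels on chow were 13.29, 12.70, 12.77 and 13 in knockout livers, against 13.20, 13.21, 13.17 and 13.09 in wild type livers. Wild type livers on western diet were the low group, and 2 of its 4 arrays were far below the others.

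Cyp2c50 had log2 levels of 13.04, 13.21, 13.14 and 13.18 in knockout livers on western diet, against 12.59, 11.40, 11.05 and 12.76 in wild type livers. Among chow-fed mice it measured 12.86, 12.71, 12.58 and 12.88 in knockout livers, against 12.99, 13.11, 12.93 and 12.97 in wild type livers. The same 2 wild type western arrays, 2 and 3, were lowest. On western diet Cyp2c37 was 2.23-fold (1.16 ± 0.25, adjusted p = 0.00256) and Cyp2c50 2.29-fold (1.19 ± 0.26, adjusted p = 0.00238) higher in knockout than in wild type livers. Among wild type livers the western diet lowered Cyp2c37 2.24-fold (-1.17 ± 0.25, adjusted p = 0.00160) and Cyp2c50 2.07-fold (-1.05 ± 0.26, adjusted p = 0.00426). In knockout livers the differences were 0.22 ± 0.25 and 0.38 ± 0.26, which did not pass. The diet effect differed between genotypes by 1.38 ± 0.35 for Cyp2c37 (adjusted p = 0.0222) and by 1.43 ± 0.36 for Cyp2c50 (adjusted p = 0.0207). These 2 interaction calls held without each array in turn (adjusted p up to 0.0476) and were lost with the authors' values (adjusted p 0.0664 and 0.0640). The other 2 Cyp2c37 probes and the other Cyp2c50 probe also pointed up in knockout livers on western diet, with differences from 0.95 to 1.23. Between diets the other Cyp2c50 probe did not pass in wild type (-0.77 ± 0.29, adjusted p = 0.051) or in knockout livers (0.90 ± 0.29, adjusted p = 0.0623). The Cyp2c50 probes thus disagree on the wild type diet call, while the interaction passed for the other probe too (adjusted p = 0.018).

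Cyp2c37 and Cyp2c50 moved together, and their promoters are shown with the same capitals as above, also from the plus strand of GRCm38.p6. Cyp2c37 lies at chr19:39992174-39992423 and Cyp2c50 at chr19:40089429-40089678.
Cyp2c37: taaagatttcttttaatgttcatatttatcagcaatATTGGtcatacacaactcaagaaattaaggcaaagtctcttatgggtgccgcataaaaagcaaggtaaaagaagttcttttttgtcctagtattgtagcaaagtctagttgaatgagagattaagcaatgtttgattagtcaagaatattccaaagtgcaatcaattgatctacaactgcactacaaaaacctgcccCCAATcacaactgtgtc
Cyp2c50: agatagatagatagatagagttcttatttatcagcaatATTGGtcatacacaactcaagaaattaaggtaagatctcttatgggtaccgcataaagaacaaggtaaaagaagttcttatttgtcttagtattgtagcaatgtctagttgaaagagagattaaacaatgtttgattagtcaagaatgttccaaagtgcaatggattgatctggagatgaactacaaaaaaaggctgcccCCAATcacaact
The windows shared 215 of 255 aligned positions, an identity of 84.3%, while the other pairs among the 4 printed windows had 37.9% to 47.8%. CCAAT began 17 bases before the start of Cyp2c37 and 12 before that of Cyp2c50, and ATTGG began 214 and 212 bases before. Neither window held the TATA core, the nuclear receptor half-site or the AhR core. With genes this alike, the 2 probes may bind both transcripts, which was not tested.

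The other Cyp2c members varied. Cyp2c29, a fatty acid epoxygenase induced through CAR, had 8.06, 8.5, 8.51 and 8.46 in knockout livers on western diet, against 8.35, 6.97, 7.19 and 8.64 in wild type livers. On chow it had 7.36, 8.08, 7.45 and 8.01 in knockout livers, against 8.16, 8.58, 8.23 and 8.48 in wild type livers. Wild type western arrays 2 and 3 were again low, while on chow all knockout arrays lay below all wild type arrays. None of its 5 results passed, the interaction being 1.23 ± 0.40 (adjusted p = 0.0668). Without wild type western array 4 Cyp2c29 passed between genotypes on western diet (adjusted p = 0.0199), between diets in wild type (0.0173) and in the interaction (0.0111), and the interaction also passed without wild type western array 1. Its diet difference in knockout livers, 0.66 ± 0.28, passed with the 8 arrays compared alone (adjusted p = 0.0412).

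Cyp2c67 was 1.35-fold higher in knockout livers on western diet (0.44 ± 0.13, adjusted p = 0.0261), with levels of 11.93 to 12.26 in knockout and 11.36 to 11.74 in wild type livers. Cyp2c38 was 1.45-fold higher (0.54 ± 0.15, adjusted p = 0.0164), with levels of 5.32 to 5.70 in knockout and 4.70 to 5.12 in wild type livers. Neither gene's groups overlapped, but the call of Cyp2c67 was lost without knockout western array 1 or 3 or wild type western array 3 (adjusted p up to 0.0931), with median scaling and with the mean of its probes. That of Cyp2c38 was lost without knockout western array 2 or wild type western array 2 (adjusted p up to 0.0662) and with median scaling. Cyp2c55 was detected in the 4 wild type western arrays and in 0 of the other 12, so it passed the filter through the group where it is high. The detection limit was also lowest in that group. A Cyp2c55 level of 4.78 in wild type western array 1 was called detected, while 4.8 in wild type chow array 1 was not. Its wild type level on western diet was at least 1.16-fold above knockout (adjusted p = 0.00337) and at least 1.13-fold above chow (adjusted p = 0.0133). Here and below, "at least" sets the bright group against the lowest detected signal of each dim array or the dim probe, whichever is higher. Both Cyp2c55 calls were lost with the authors' values.

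Cyp2c39, which oxidises retinoic acid, had 5.60, 6.37, 5.47 and 5.43 in knockout livers on western diet, against 6.01, 5.16, 5.30 and 5.95 in wild type livers. Its chow levels were 5.96, 5.01, 5.77 and 4.89 in knockout livers, against 5.16, 5.81, 5.68 and 4.96 in wild type livers. All 4 groups overlapped and its 5 differences, from 0.005 to 0.31, did not pass.

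Among the Cyp2d genes, 5 of 7 passed between genotypes on western diet (19.8% of all genes). Of these, 4 were higher in knockout livers (8.82% of all genes) and 1 was lower (11%). Between diets in wild type 5 of 7 passed (29.6% of all genes), 1 higher on western diet (15.5%) and 4 lower (14.1%). Cyp2d9 is a male-biased testosterone hydroxylase of mouse liver. It had log2 levels of 14.27, 14.27, 14.36 and 14.56 in knockout livers on western diet, against 13.87, 13.41, 12.90 and 14.05 in wild type livers. Levels on chow were 14.11, 13.93, 14.40 and 14.17 in knockout livers, against 14.69, 14.27, 14.20 and 14.33 in wild type livers. Wild type livers on western diet lay below the other 3 groups except for the lowest knockout chow array. Cyp2d9 was 1.75-fold higher in knockout livers on western diet (0.81 ± 0.19, adjusted p = 0.00443) and 1.76-fold lower on western diet than on chow in wild type (-0.81 ± 0.19, adjusted p = 0.00279). The diet effects differed by 1.02 ± 0.26 (adjusted p = 0.0235), a call lost without knockout chow array 2 or wild type chow array 1 (adjusted p up to 0.0532) and with the authors' values (0.0605).

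Cyp2d13 had log2 levels of 7.96, 7.96, 8.22 and 8.33 in knockout livers on western diet, against 7.42, 6.79, 6.93 and 7.35 in wild type livers. Among chow-fed mice it measured 7.58, 7.27, 7.53 and 7.42 in knockout livers, against 8.07, 7.70, 7.63 and 7.32 in wild type livers. Knockout livers on western diet lay above wild type livers on that diet and above knockout livers on chow without overlap. Cyp2d13 was 1.99-fold higher in knockout livers on western diet (0.99 ± 0.16, adjusted p = 0.000200). The western diet raised it 1.59-fold in knockout livers (0.67 ± 0.16, adjusted p = 0.0158) and lowered it 1.47-fold in wild type livers (-0.56 ± 0.16, adjusted p = 0.0125). This was the member whose diet effect passed in both genotypes with opposite signs, and the difference of 1.22 ± 0.22 passed (adjusted p = 0.00273). The wild type call was lost without wild type western array 2 or wild type chow array 1 (adjusted p up to 0.0546) and with median scaling (0.239), and the knockout call without knockout western array 4 or knockout chow array 2 (adjusted p up to 0.0543).

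Cyp2d40 had log2 levels of 10.80, 10.91, 11.31 and 11.10 in knockout livers on western diet, against 10.77, 9.92, 10.09 and 10.44 in wild type livers. On chow it had 10.12, 10.32, 10.27 and 10.29 in knockout livers, against 10.64, 10.57, 10.49 and 10.18 in wild type livers. Knockout livers on western diet were the high group, with no overlap with either group it was compared with. Cyp2d40 was 1.65-fold higher in knockout than in wild type livers on western diet (0.72 ± 0.15, adjusted p = 0.00206) and 1.72-fold higher on western diet than on chow in knockout livers (0.78 ± 0.15, adjusted p = 0.00511). In wild type livers the diet difference was -0.16 ± 0.15 and did not pass, and the diet effects differed by 0.95 ± 0.22 (adjusted p = 0.0116). Cyp2d10 was 1.36-fold higher in knockout livers on western diet (0.44 ± 0.10, adjusted p = 0.00285) and 1.37-fold lower on western diet in wild type (-0.46 ± 0.10, adjusted p = 0.00149). Cyp2d22 was 1.22-fold lower on western diet in wild type (-0.29 ± 0.11, adjusted p = 0.0478), a call lost without 9 of the 16 arrays, 1 at a time (adjusted p up to 0.170). Cyp2d26 did not pass in any comparison.

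Cyp2d12 was the lower Cyp2d gene in the genotype comparison on western diet (-0.42 ± 0.14, adjusted p = 0.0419). It was detected in 2 knockout and 4 wild type arrays on that diet, with levels of 4.27 to 4.81 in knockout and 4.75 to 5.17 in wild type livers. Among wild type livers it was at least 1.17-fold higher on western diet than on chow (adjusted p = 0.00830), and it was detected in 0 of the 8 chow arrays. The genotype call was lost without knockout western array 1 or 2 or wild type western array 1, 2 or 3 (adjusted p up to 0.143) and in 5 other alternatives.

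Low values in wild type western arrays 2 and 3 recurred across the family. In 20 of 30 members these were the 2 lowest of the 4 wild type western arrays, as they were in 22.0% of all genes. The 20 included Cyp2c37, Cyp2c50, Cyp2d9, Cyp2d13, Cyp1a2, Cyp2e1 and Cyp2f2. The mean level of 13 macrophage markers was 9.45, 9.89, 9.56 and 9.05 in wild type western arrays 1 to 4, and that of 11 stellate cell and fibroblast markers was 7.03, 7.54, 7.47 and 6.99. Arrays 2 and 3 had the 2 highest values of each list. The part of other cell types in the P450 differences was not tested. The 8 hepatocyte markers averaged 12.84, 12.82, 12.78 and 12.71 in the same arrays.

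**Figure D4:**
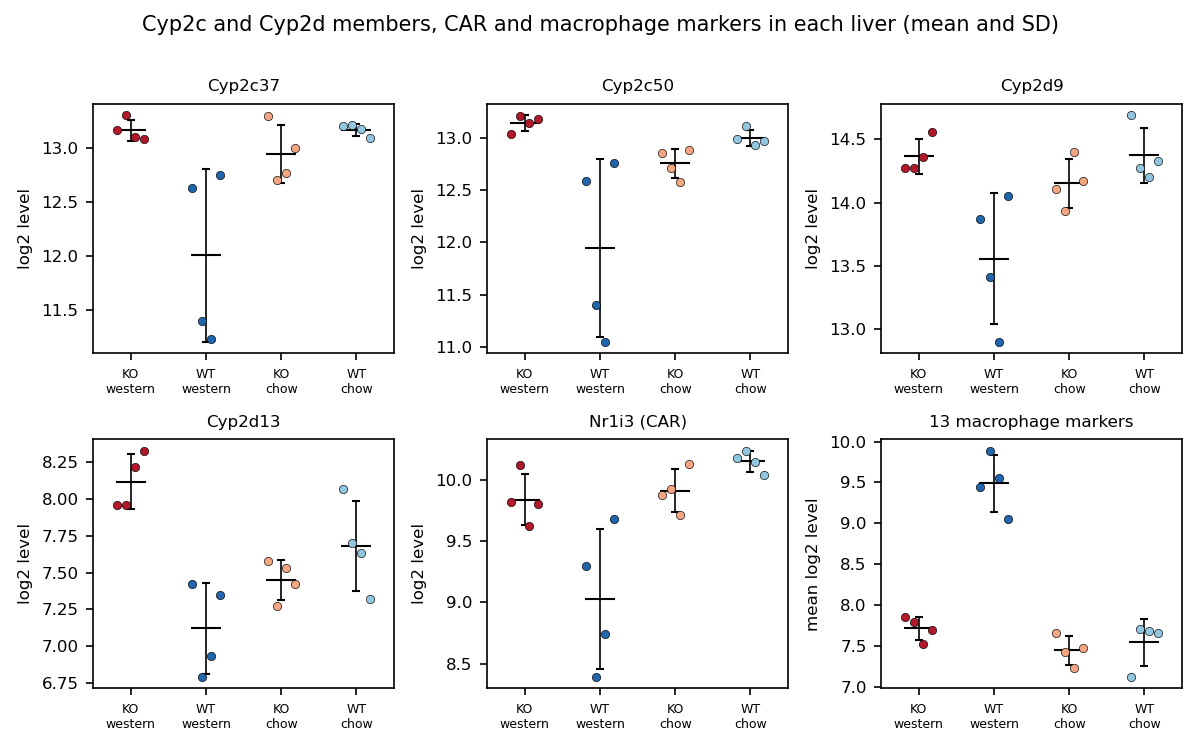
Log2 level in each liver (y axis) of Cyp2c37, Cyp2c50, Cyp2d9, Cyp2d13 and Nr1i3, which encodes CAR, and the mean of 13 macrophage markers, by group (x axis), with 1 point per mouse and bars for the mean and SD of 4. Wild type livers on western diet are the lowest group by mean in the first 5 panels and the highest in the macrophage panel, where they lie between 9.05 and 9.89.

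The Cyp2b genes varied most between mice of a group. The SD within groups, pooled over the 4 groups, was 1.68 for Cyp2b9, 1.31 for Cyp2b23, 1.11 for Cyp2b13 and 0.804 for Cyp2b10, against a median of 0.243 over the tested members and 0.196 over all genes. Cyp2b9, a female-biased steroid hydroxylase of mouse liver, had 8.99, 10.50, 9.38 and 7.30 in knockout livers on western diet, against 9.40, 5.44, 6.74 and 10.15 in wild type livers. Its chow levels were 5.17, 5.99, 6.57 and 8.43 in knockout livers, against 5.32, 8.05, 7.09 and 4.49 in wild type livers. All these groups overlapped. Western diet minus chow was 2.50 ± 0.95 in knockout livers (adjusted p = 0.112) and 1.70 ± 0.95 in wild type livers (adjusted p = 0.195), and neither passed. Cyp2b9 passed in knockout livers with the 8 arrays compared alone (adjusted p = 0.0476) and in wild type without wild type western array 2 (0.0499).

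Cyp2b23 spanned 5.31 to 8.62 in knockout and 4.30 to 8.22 in wild type livers on western diet, and 4.50 to 6.37 in knockout and 4.63 to 6.46 in wild type livers on chow. Cyp2b23 was detected in 4 knockout and 3 wild type arrays on western diet. On chow it was detected in 1 knockout and 2 wild type arrays, so part of its order there ranks values at background. In each of the 4 groups the same mouse was highest for Cyp2b9 and Cyp2b23 and the same mouse was lowest, and the full order of the 4 mice was shared in 3 groups. Cyp2b9 and Cyp2b13 shared the highest mouse in 2 groups and the lowest in 3, although Cyp2b13 was detected in 0 chow arrays. Whether these probes bind each other's transcripts was not tested.

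Cyp2b13, also female-biased, had 5.34, 8.02, 5.26 and 4.37 in knockout livers on western diet, against 6.56, 4.36, 4.62 and 7.57 in wild type livers. Levels on chow were 4.18, 4.26, 4.22 and 4.24 in knockout livers, against 4.51, 4.36, 4.19 and 4.30 in wild type livers. It was detected in 3 knockout and 2 wild type arrays on western diet and in 0 of the 8 chow arrays. Against chow arrays at background, it was at least 1.995-fold higher on western diet in knockout and at least 2.01-fold higher in wild type livers by group means, but neither difference passed (adjusted p 0.145 and 0.0952). The wild type one passed without wild type western array 2 or knockout western array 2 (adjusted p down to 0.0310).

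Cyp2b10, the classic CAR target, had 4.46, 6.44, 6.26 and 4.53 in knockout livers on western diet, against 7, 4.71, 6.20 and 5.92 in wild type livers. Among chow-fed mice it measured 6.04, 4.80, 5.71 and 5.16 in knockout livers, against 7.29, 7.83, 7.61 and 6.75 in wild type livers. On chow all knockout arrays lay below all wild type arrays, and on western diet the genotypes overlapped. In wild type livers Cyp2b10 was 2.66-fold lower on western diet (-1.41 ± 0.46, adjusted p = 0.0276), a call lost without wild type western array 2 or 4 or wild type chow array 2 or 3 (adjusted p up to 0.111) and with the authors' values (0.0705). In knockout livers the diet difference was -0.002 ± 0.46 (95% interval -0.97 to 0.97). The chow difference of -1.94 ± 0.46 did not pass (adjusted p = 0.0554).

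**Figure D5:**
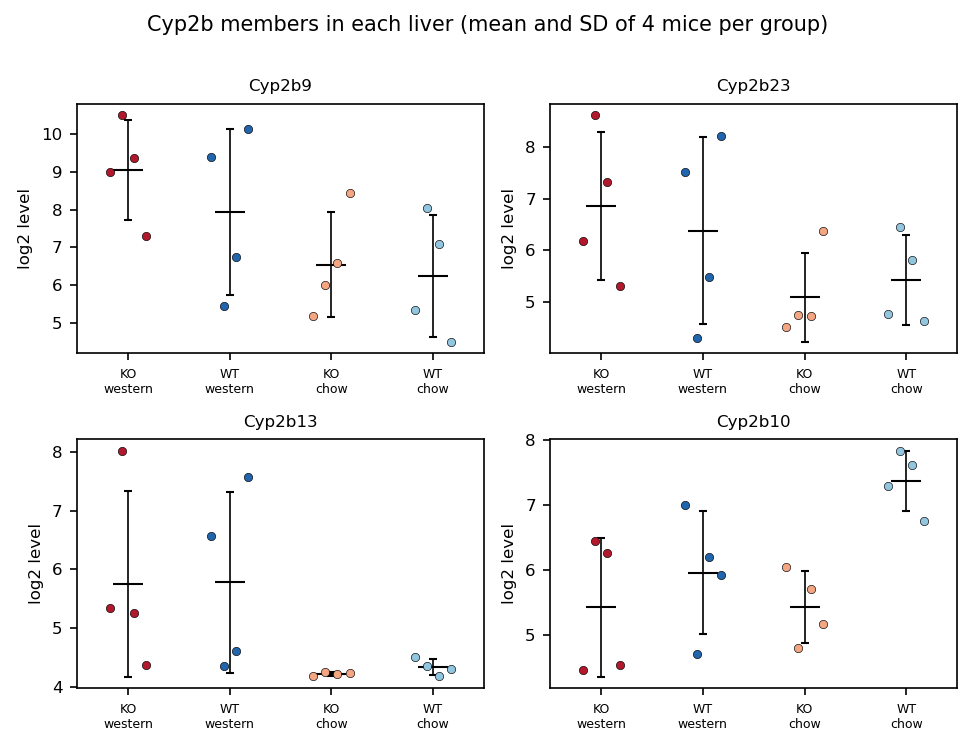
Log2 level in each liver (y axis) of Cyp2b9, Cyp2b23, Cyp2b13 and Cyp2b10 by group (x axis), with 1 point per mouse and bars for the mean and SD of 4. Cyp2b9 spans 5.44 to 10.15 within wild type livers on western diet, and for Cyp2b10 all knockout points lie below all wild type points on chow.

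Cyp1a2 oxidises caffeine and aromatic amines and is pericentral. Its log2 levels were 10.37, 9.99, 10.22 and 10.14 in knockout livers and 10.19, 9.72, 9.25 and 10.02 in wild type livers on western diet. On chow they were 10.91, 11.96, 10.87 and 10.83 in knockout livers and 11.73, 11.22, 11.42 and 11.05 in wild type livers. Western diet arrays lay below chow arrays in each genotype. Cyp1a2 was 1.95-fold lower on western diet in knockout livers (-0.96 ± 0.22, adjusted p = 0.0137) and 2.95-fold lower in wild type livers (-1.56 ± 0.22, adjusted p = 4.05e-05). The difference between these effects was 0.60 ± 0.32 and did not pass (adjusted p = 0.291), although it did without knockout chow array 2 (adjusted p = 0.0455). Its other probe also fell in wild type livers, by 1.73 on the log2 scale. The probes disagree on the genotype call on western diet, where the other probe was higher in knockout livers (0.61 ± 0.21, adjusted p = 0.0477) and the one used did not pass (0.38 ± 0.22, adjusted p = 0.256). Cyp1a1 and Ahr itself were detected in 0 arrays.

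Cyp1b1 hydroxylates oestrogens and is expressed mostly outside hepatocytes. Its log2 levels were 4.97, 4.43, 4.57 and 4.52 in knockout livers on western diet, against 4.74, 5.46, 5.42 and 4.95 in wild type livers. On chow they were 4.87, 5.17, 4.84 and 4.99 in knockout livers, against 4.73, 4.39, 4.52 and 4.71 in wild type livers, where it was detected in 0 of 4 arrays. Wild type western arrays 2 and 3, which were lowest for most members, were the highest here. Cyp1b1 was lower in knockout livers on western diet (adjusted p = 0.0306), where it was detected in 1 of 4 arrays, so no fold is given. It was at least 1.30-fold higher on western diet than on chow in wild type (adjusted p = 0.0154). The interaction was below 0 (adjusted p = 0.0235), and its size is not exact because wild type chow livers were not well above background. These 3 calls were lost without wild type western array 2 or 3 and with the authors' values (adjusted p up to 0.265), and the genotype call also without a detection filter, with the 8 arrays alone and with the replicate block. Wild type chow array 2 also ended both diet calls when left out, and knockout western array 2, 3 or 4 the genotype call (adjusted p up to 0.116).

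Cyp2e1, which oxidises ethanol and paracetamol, had 14.76, 14.87, 14.20 and 14.87 in knockout livers on western diet, against 14.74, 13.82, 14.36 and 14.94 in wild type livers. On chow it had 14.45, 14.11, 14.23 and 14.25 in knockout livers, against 14.74, 14.97, 14.84 and 14.79 in wild type livers. All knockout chow arrays lay below all wild type chow arrays. The chow difference of -0.57 ± 0.19 did not pass (adjusted p = 0.200) but did with the 8 arrays compared alone (0.0159). The interaction of 0.78 ± 0.27 did not pass (adjusted p = 0.0855) but did with median scaling and without knockout western array 3 or wild type western array 4 (adjusted p down to 0.0277).

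Cyp2j9, an arachidonic acid oxidase of the mouse Cyp2j group, had 7.53, 7.79, 6.49 and 7.47 in knockout livers on western diet, against 7.53, 6.90, 6.77 and 7.39 in wild type livers. Its chow levels were 7.62, 7.97, 7.94 and 7.78 in knockout livers, against 7.97, 7.73, 8.01 and 8.32 in wild type livers. Among wild type livers all western diet arrays lay below all chow arrays, and Cyp2j9 was 1.81-fold lower (-0.86 ± 0.22, adjusted p = 0.00678). In knockout livers the groups overlapped and the difference of -0.51 ± 0.22 did not pass (adjusted p = 0.168). The wild type call was lost with median scaling (adjusted p = 0.0694).

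Cyp2r1, a vitamin D hydroxylase, and Cyp2u1, a fatty acid hydroxylase, stood near background. Cyp2r1 had 4.80, 4.95, 5.16 and 4.43 in knockout livers on western diet, against 4.53, 4.61, 4.31 and 4.66 in wild type livers. Levels on chow were 4.29, 4.49, 4.68 and 4.59 in knockout livers, against 4.44, 4.44, 4.80 and 4.55 in wild type livers. It passed in 0 of the 5 comparisons, as did Cyp2u1, whose levels were 4.57 to 5.12 in knockout and 4.33 to 4.67 in wild type livers on western diet, and 4.65 to 4.91 in knockout and 4.57 to 5.23 in wild type livers on chow. Cyp2r1 passed between genotypes on western diet without knockout western array 4 (adjusted p = 0.0415), and Cyp2u1 between diets in wild type without knockout western array 1 or wild type chow array 4 (adjusted p down to 0.0190).

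The Cyp3a enzymes oxidise steroids and many drugs. Cyp3a11, the main PXR target of mouse liver, had 12.63, 13.20, 12.59 and 12.50 in knockout livers on western diet, against 12.98, 12.72, 12.87 and 12.80 in wild type livers. Among chow-fed mice it measured 13.34, 13.14, 13.36 and 13.05 in knockout livers, against 12.86, 12.76, 13.01 and 12.34 in wild type livers. On chow all knockout arrays lay above all wild type arrays, yet the difference of 0.48 ± 0.15 did not pass (adjusted p = 0.159). In knockout livers Cyp3a11 was 1.41-fold lower on western diet (-0.49 ± 0.15, adjusted p = 0.0464), a call lost when any of 11 of the 16 arrays was left out (adjusted p up to 0.129) and in 5 other alternatives (adjusted p up to 0.350). The interaction of -0.60 ± 0.21 did not pass (adjusted p = 0.0942) but did without knockout western array 2 (0.0191).

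Cyp3a13 had 11.24, 11.08, 10.86 and 11.39 in knockout livers on western diet, against 11.05, 11.36, 11.21 and 11.17 in wild type livers. On chow it had 11.23, 11.54, 11.26 and 11.27 in knockout livers, against 11.41, 11.25, 11.27 and 11.45 in wild type livers. These ranges overlapped and Cyp3a13 passed in 0 of 5 comparisons. Another of its 3 probes was lower on western diet in wild type livers (-0.43 ± 0.09, adjusted p = 0.00166), so its probes disagree on that call. Cyp3a25 spanned 10.70 to 11.65 over all arrays and did not pass either. Its diet difference in wild type livers, -0.34 ± 0.14 (adjusted p = 0.0792), passed without wild type western array 1 or 4 (adjusted p down to 0.0411).

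Of the receptors known to drive P450 genes, Nr1i3 and Nr1i2 were detected in 16 arrays and Ahr in 0. Whether their levels bear on those of the members was not tested. Nr1i3 (CAR) had log2 levels of 9.82, 10.12, 9.62 and 9.80 in knockout livers on western diet, against 9.30, 8.39, 8.74 and 9.68 in wild type livers. Its chow levels were 9.88, 9.93, 9.71 and 10.13 in knockout livers, against 10.18, 10.24, 10.15 and 10.04 in wild type livers. As with Cyp2c37 and Cyp2c50, wild type western arrays 2 and 3 were the lowest of their group, as they were in 22.0% of all genes. Nr1i3 was 1.76-fold higher in knockout livers on western diet (0.81 ± 0.19, adjusted p = 0.00495), was 2.18-fold lower on western diet in wild type (-1.13 ± 0.19, adjusted p = 0.000214), and its diet effects differed by 1.06 ± 0.27 (adjusted p = 0.0227). It did not pass between genotypes on chow (-0.24 ± 0.19) or between diets in knockout livers (-0.07 ± 0.19).

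Nr1i2 (PXR) had log2 levels of 9.07 to 9.14 in knockout and 8.64 to 8.93 in wild type livers on western diet, and 9.21 to 9.77 in knockout and 8.97 to 9.13 in wild type livers on chow. Knockout livers were higher without overlap on both diets, yet neither difference passed, at 0.28 ± 0.10 on western diet (adjusted p = 0.0698) and 0.36 ± 0.10 on chow (adjusted p = 0.137). The diet differences of Nr1i2 were -0.32 ± 0.10 in knockout and -0.25 ± 0.10 in wild type livers (adjusted p 0.0625 and 0.0824), and their difference was -0.08 ± 0.15. Of 21 measured receptors and liver factors, 8 passed between diets in wild type, 1 higher on western diet and 7 lower, against the shares of all genes given above. The 4 largest were Nfe2l2, a stress response factor (1.17 ± 0.18), Nr1i3, Cebpb (-0.79 ± 0.22) and Nr5a2, a nuclear receptor that SHP represses (-0.78 ± 0.12). Between genotypes on western diet 4 of the 21 passed, a share near the 19.8% of all genes. Nr1i3, Foxa3 (0.64 ± 0.16) and Nr1h4, the bile acid receptor (0.38 ± 0.12), were higher in knockout livers and Nfe2l2 was lower (-0.80 ± 0.18).

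Targets of CAR and PXR outside the P450 genes did not share a direction. Of 12 measured, 6 passed between genotypes on western diet (19.8% of all genes), 2 higher in knockout livers and 4 lower, among them the glutathione transferase Gstm1 (-1.26 ± 0.17) and Papss2, which makes the sulfate donor (0.60 ± 0.14). In wild type livers 8 of 12 passed between diets (29.6% of all genes), 4 higher on western diet and 4 lower. Of 12 measured electron partners and haem synthesis or breakdown genes, 2 passed between genotypes on western diet, a share near the 19.8% of all genes: Cpox of haem synthesis (0.72 ± 0.19) and Hmox1 of haem breakdown (-0.80 ± 0.27). Alas1, the first enzyme of haem synthesis, passed in 0 of 5 comparisons, with differences from -0.56 to 0.52. Por, which encodes P450 oxidoreductase, had no named probe.

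Zonal genes outside the family were counted for comparison. Of 10 measured pericentral genes, 9 passed between genotypes on western diet, against 19.8% of all genes, 8 higher in knockout livers (8.82% of all genes) and 1 lower (11%). Slc1a2, a glutamate transporter, was higher (1.25 ± 0.15), as were Tbx3 (1.36 ± 0.25), Rhbg, an ammonium transporter (1.10 ± 0.21), and Rgn (0.96 ± 0.18). Against the same shares, 3 of 7 tested pericentral P450 members passed, Cyp2c37 and Cyp2c50 higher and Cyp2a5 lower. Of 10 measured periportal genes, 4 passed there, 2 higher in knockout livers and 2 lower. Cyp2f2 was the listed periportal member and was lower. Whether the zones changed in size was not tested.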

How the data were processed

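RNA of 16 livers, 1 microgram per mouse, was hybridised to 16 Illumina arrays, 4 per group. The deposited probe intensity values were exported from BeadStudio (version not given in the sources used here) without background subtraction or scaling, per the file headers and the submitters' processing notes. The deposited table also holds a detection p-value for each probe and array, per the file headers. The authors' processed intensity values, which by their negative values and near-equal quantiles are background-subtracted and quantile-normalized, served as an alternative.

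Intensities were background-corrected and quantile-normalized with neqc (offset 16) in limma 3.58.1 (R 4.3.3), which estimates background from the detection p-values. Probes detected at p below 0.05 in at least 4 of 16 arrays were kept, 13196 of 25697, and the brightest named probe stood for its gene. Of all probes, 23978 had 1 symbol, 1719 had none and 0 had several. One mean per group was fitted over all 16 arrays (12 residual degrees of freedom) with lmFit and eBayes with a trend, and p-values were adjusted over 9095 genes by Benjamini-Hochberg. The contrasts were knockout over wild type on each diet, western diet over chow in each genotype, and the difference of the diet effects. The fit was tested on simulated data. Python 3.11.15, Biopython 1.88 and matplotlib 3.10.9 were used for promoters and plots.

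Values in every array are given for a list of key P450 genes and for the 8 members with the largest difference among those that passed in each comparison, other members by range and count, and at most 4 genes per other list and comparison. The members and gene lists were chosen with earlier results of these data known. Groups came from the genotype and diet labels; the 4 mice of a group are individual animals, and the number of arrays limits precision. Alternatives were no background correction, normexp without negative controls (offset 50), median scaling, the authors' values (floored at 16), no filter, a strict filter (detection p below 0.01), the mean of a gene's probes, the 8 arrays of a comparison alone, a replicate block and each array left out. Slide and scan were not given, so array batches were not analysed here.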

Additional observations from a re-analysis of the deposited data

Results flagged for a closer look

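In 9 of 120 groups of 4 arrays, 1 array stood apart from the other 3 by Dixon's criterion, where chance gives about 1 in 20 groups, or 6. Knockout chow array 2 was high for Cyp1a2, at 11.96 against 10.83 to 10.91 in the other 3, and for Cyp3a13, at 11.54 against 11.23 to 11.27. It was low for Cyp2d10, at 13.29 against 13.39 to 13.40. Knockout chow array 4 was high for Cyp2b23, at 6.37 against 4.50 to 4.75. Knockout western array 1 was low for Cyp2c29, at 8.06 against 8.46 to 8.51, and for Cyp2d22, at 11.95 against 12.19 to 12.23. Knockout western array 3 was low for Cyp2e1, at 14.20 against 14.76 to 14.87. Wild type western array 3 was low for Cyp2c67, at 11.36 against 11.71 to 11.74, and wild type chow array 4 for Cyp2a12, at 11.92 against 12.23 to 12.27.

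The diet effect differed between genotypes for 6 genes in the limma interaction test. The difference, knockout minus wild type, was 1.43 for Cyp2c50 (diet effects 0.38 in knockout and -1.05 in wild type), 1.38 for Cyp2c37 (0.22 and -1.17) and 1.22 for Cyp2d13 (0.67 and -0.56). It was 1.02 for Cyp2d9 (0.21 and -0.81), 0.95 for Cyp2d40 (0.78 and -0.16) and -0.90 for Cyp1b1 (-0.35 and 0.56). The Cyp1b1 values are as fitted and not exact, because the probe was detected in 0 of 4 wild type chow arrays.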

How the results depend on the processing

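Of 3690 results of single members under an alternative or with an array left out, 3534 stayed on their side of the threshold, 101 no longer passed, 55 newly passed and 0 that passed changed sign. The number of members passing the interaction was 2 with the authors' values and 9 with median scaling (6 in the report). With the authors' values, the number passing between genotypes on western diet was 10 (14) and that in wild type livers between diets was 8 (13). In knockout livers between diets it was 3 under each of median scaling, no detection filter and the authors' values (5). Between genotypes on chow it was 1 with the authors' values, 4 with median scaling and 5 with the 8 arrays alone (2). With each array left out in turn the counts ranged from 11 to 14 between genotypes on western diet, 1 to 4 on chow, 3 to 5 between diets in knockout, 10 to 15 in wild type and 5 to 8 for the interaction. Over all genes, 76 passed between genotypes on chow, but 49 without wild type chow array 3 and 48 with the authors' values, and 717 between diets in knockout, but 359 without knockout chow array 2 and 347 with median scaling. Median scaling moved the median of all genes to -0.159 between genotypes on western diet, 0.145 between diets in wild type and -0.105 in the interaction. The cause of these changes was not tested.

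Deviations of arrays with the same replicate number correlated at -0.166 to 0.186, with 6 of 24 pairs over 0.1, against 9 of 72 pairs with different numbers, and 7 of 16 arrays correlated best with their own number. The labels give no pairing, so the numbers were not taken to pair mice. These correlations cannot decide the matter, because no size that paired mice would reach is known here. With the replicate block, 12 members passed between genotypes on western diet (14 without it), 2 on chow, 5 between diets in knockout, 13 in wild type and 7 in the interaction.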

Other observations

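Of 4 tested AhR targets outside the P450 genes, 2 passed between genotypes on western diet (19.8% of all genes), the glutathione transferase Gsta1, lower in knockout livers (-3.68), and the glucuronosyltransferase Ugt1a6a, higher (0.46). In wild type livers Gsta1 (4.39) and the quinone reductase Nqo1 (0.51) were higher on western diet than on chow (15.5% of all genes). Ugt1a6a (-0.017) and Xdh (0.015) did not pass there, and Cyp1a2 was lower. Gsta1 was detected in 9 of 16 arrays, with chow means near background, 4.37 in knockout and 4.84 in wild type livers. Its differences are therefore not exact. Of 11 tested inflammation and acute phase genes, 3 passed between genotypes on western diet (19.8% of all genes), all lower in knockout livers, and 5 between diets in wild type (29.6% of all genes), 4 higher on western diet and 1 lower. Of 10 tested periportal genes outside the family, 8 passed between diets in wild type (29.6% of all genes), 1 higher on western diet and 7 lower, and Cyp2f2 did not pass there.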
